A study of Mus musculus with 12 samples.

Results

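Neurotrophins are secreted proteins that act on neurons, glia and their progenitors through 2 kinds of receptor, the Trk receptor tyrosine kinases and the p75 receptor. The 6 mouse genes of that system described here were Ngfr (the p75 receptor), Ntrk2 (TrkB, the receptor for BDNF and NT-4), Ntrk3 (TrkC, the receptor for NT-3), Sort1 (sortilin), and the ligand genes Bdnf (BDNF) and Ntf3 (NT-3). They were chosen by name, with earlier results of these data known. They were taken from both the count and the TPM tables, out of 43309 features listed at day 5 and 42802 listed at day 9. All 6 were listed at both days; 5 passed the filter on low counts at each day and Ntf3 did not.

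The samples were cultured mouse neural progenitor cells of strain C57BL/6, grown with 10 ng/ml each of EGF and FGF-2. The cKO groups were LaminB1fl/fl; Ai3 cells and the WT groups LaminB1+/+; Ai3 cells, where Ai3 is a Cre-dependent EYFP reporter. Every group, WT included, received the lentivirus pSox2-Cre, which expresses Cre recombinase under a Sox2 promoter, for 5 or 9 days, and EYFP+ cells were sorted before polyA RNA was extracted. There were 3 libraries in each of 4 groups, cKO and WT at day 5 and cKO and WT at day 9. Recombination was thus sought only in cells that took up the virus and used that promoter, and the origin of the replicates (cultures or animals) is not labelled. The p-values therefore reflect the spread among these libraries, part or all of which may be technical.

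Lmnb1 itself averaged 41.2 ± 3.65 CPM in cKO and 264 ± 21.7 CPM in WT libraries at day 5, and 35.5 ± 3.45 CPM in cKO and 184 ± 27.2 CPM in WT libraries at day 9 (SD, n = 3 each). CPM are counts scaled to a common library size over the tested genes, after TMM normalisation. Library totals were 26720476 to 32127629 counts at day 5; at day 9 they were 13315273, 22988447 and 13709733 in cKO libraries and 24412935 to 24662809 in WT libraries. Ribosomal and other short noncoding RNAs, with the features Gm42418 and Lars2 added by name, were grouped as structural RNAs. At day 9 this group took 69.8%, 0.351% and 68.4% of counts in cKO libraries 1, 2 and 3. In WT libraries 1, 2 and 3 it took 15.8%, 34.6% and 17.7%. Outside those RNAs cKO libraries 1 and 3 kept 4017678 and 4327493 counts and cKO library 2 kept 22907909, so low levels in cKO at day 9 rest mostly on library 2. At day 5 cKO library 2 had 14.4% of such RNA and no other library more than 0.506%.

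The p75 receptor binds all mature neurotrophins with similar affinity and, together with sortilin, the uncleaved proneurotrophins; without a kinase of its own it signals through adaptor proteins and can also modulate Trk receptors. Trk receptors signal through adaptors such as the Shc and Frs2 proteins to the Ras and ERK, phosphoinositide 3-kinase and phospholipase C gamma pathways. In the brain, truncated TrkB without the kinase domain is the main form in astrocytes, full-length TrkB is a neuronal receptor, and BDNF and NT-3 are known for roles in the survival and differentiation of neurons and oligodendrocyte lineage cells.

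Ngfr and Ntrk2 lay at the ends of the range of change among the 6 genes at day 9, so the sequences just before their start sites are shown. They come from the RefSeq promoter table on GRCm38.p6, which matched 4 of the 6 genes (Ngfr, Ntrk2, Bdnf and Ntf3), and are cut to the bases outside the transcripts of both annotations. Capitals mark the GC box letters GGGCGG on either strand. Ngfr is shown from chr11:95587736-95587948 (minus strand) and Ntrk2 from chr13:58806319-58806471 (plus strand).
Ngfr: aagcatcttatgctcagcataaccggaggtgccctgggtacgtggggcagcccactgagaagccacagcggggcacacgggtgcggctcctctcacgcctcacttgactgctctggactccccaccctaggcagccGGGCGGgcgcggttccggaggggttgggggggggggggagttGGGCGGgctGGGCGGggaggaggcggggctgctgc
Ntrk2: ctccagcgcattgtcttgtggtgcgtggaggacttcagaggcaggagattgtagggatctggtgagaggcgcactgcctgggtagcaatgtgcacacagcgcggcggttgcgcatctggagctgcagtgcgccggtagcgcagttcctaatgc

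The stretch shown for Ngfr held 3 GC boxes and the stretch shown for Ntrk2 held 0. Over the whole 300-base windows Ngfr had 4 GC boxes and 71.7% G and C, and Ntrk2 had 1 GC box and 61.3% G and C; 35.7% of all 32851 windows in the table held at least 1 GC box. TATAAA, TGACGTCA and CCGGAAG were searched on both strands, and none of them was found in the 11 windows of the 4 genes; they were in 13.6%, 1.79% and 8.86% of all windows. These counts describe letters in a window and say nothing of factor binding.

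Ngfr (GRCm38 chromosome 11, 95568818 to 95587735, minus strand, 1 annotated transcript of 3446 bases) had 16.7, 9.79 and 13.4 CPM in cKO libraries 1, 2 and 3 at day 5, against 10.8, 21.5 and 27.3 CPM in WT libraries 1, 2 and 3. The ranges overlapped, and the day 5 log2 change was -0.58 ± 0.40 (SE), not past the threshold of an adjusted p of 0.05. At day 9 Ngfr had 0.468, 0.603 and 0.563 CPM in cKO libraries, against 23.1, 23.9 and 20.4 CPM in WT libraries. Every cKO library was far below every WT library, and the WT libraries lay close together.

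Ngfr fell at day 9 by 5.29 ± 0.18 on the log2 scale (39.1-fold), the means being 0.545 ± 0.0697 CPM in cKO and 22.5 ± 1.83 CPM in WT libraries (SD, n = 3 each). The expected counts behind the cKO values were 3.03, 24.15 and 4.1, against 817.66, 667.07 and 702.11 in WT libraries. Exact 95% Poisson intervals, which cover counting error only, were 0.619 to 8.77, 15.4 to 35.7 and 1.09 to 10.2 counts for cKO libraries 1, 2 and 3. The SE of 0.18 is derived from the F statistic. With DESeq2 the log2 change was -5.32 ± 0.35 and with limma-voom -5.21 ± 0.30, so 0.18 may understate the uncertainty. Without cKO libraries 1 and 3 the log2 change was -5.24. No annotated gene overlaps Ngfr. In RNA from mixed cells, fewer cells that express a gene and less RNA per cell cannot be told apart, which holds for every level given here.

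**Figure D1:**
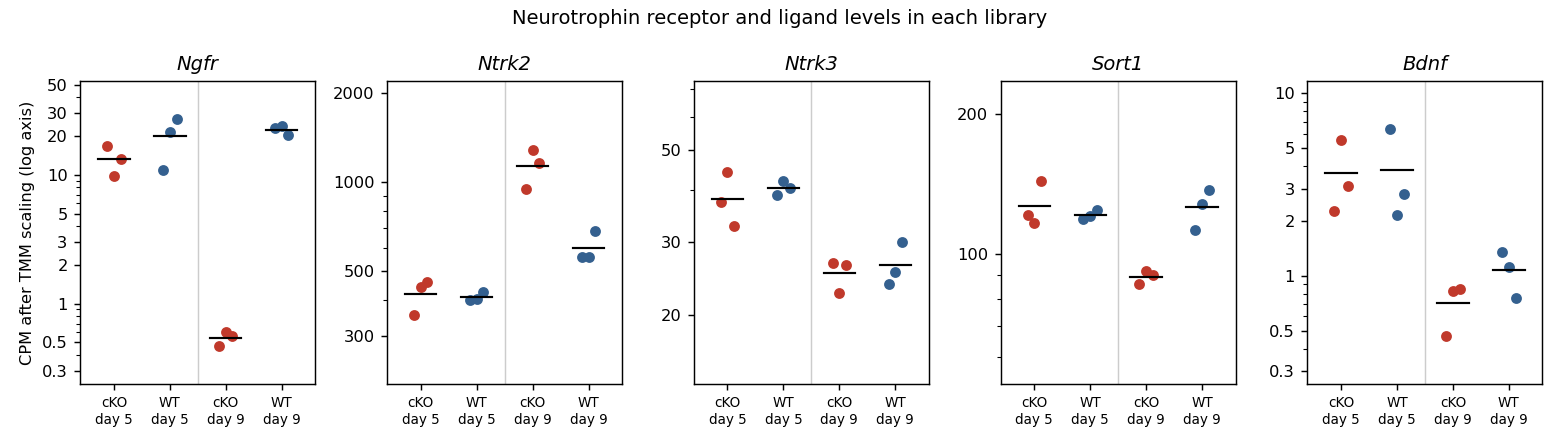
Levels of the 5 detected genes in each library, in CPM after TMM scaling on log axes that differ between panels; red points are cKO and blue points WT libraries, and black lines are group means (n = 3 each). Ngfr in cKO at day 9 sits below 1 CPM, against more than 20 CPM in WT, while Ntrk2 in cKO at day 9 sits above all WT points.

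Ntrk2 (chromosome 13, 58806569 to 59133970, plus strand) was the most abundant of the 3 receptors in every library, per transcript length. At day 5 it had 354, 442 and 460 CPM in cKO libraries 1, 2 and 3, against 398, 401 and 424 CPM in WT libraries, which overlapped. The day 5 log2 change was 0.04 ± 0.20, and its sign turned under other settings. At day 9 it had 951, 1290 and 1157 CPM in cKO libraries, against 556.1, 555.5 and 684 CPM in WT libraries, so that the lowest cKO library lay above the highest WT library.

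Ntrk2 rose at day 9 by 0.92 ± 0.15 on the log2 scale (1.89-fold), to 1133 ± 171 CPM in cKO, against 599 ± 74.0 CPM in WT libraries (SD, n = 3 each). On log2(TPM + 1) without TMM scaling the value was -0.15, where the median of all genes was -0.79, so relative to that median Ntrk2 was at 0.64. The cKO library with little structural RNA had the highest Ntrk2 level, and without the other 2 cKO libraries the log2 change was 1.08. Of the 4 annotated genes that overlap Ntrk2, 3 are on the opposite strand; strand use in counting is not given in the sources used here, so their reads cannot be told apart from those of Ntrk2.

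Ntrk3 (chromosome 7, 78175959 to 78738012, minus strand) had 37.4, 44.2 and 32.8 CPM in cKO libraries 1, 2 and 3 at day 5, against 38.8, 42.0 and 40.5 CPM in WT libraries. At day 9 it had 26.7, 22.7 and 26.4 CPM in cKO libraries, against 23.8, 25.4 and 30.0 CPM in WT libraries. The groups overlapped at both days. The log2 change was -0.09 ± 0.22 at day 5 and -0.07 ± 0.14 at day 9, neither past the threshold. Gm9885, an antisense gene inside Ntrk3, reached at most 5.14 CPM at day 5 and 3.11 CPM at day 9.

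Sort1 (chromosome 3, 108284082 to 108361511, plus strand) encodes a sorting receptor that binds proneurotrophins with p75 and also carries progranulin and prosaposin to lysosomes. At day 5 it had 121, 116 and 143 CPM in cKO libraries 1, 2 and 3, against 119, 121 and 124 CPM in WT libraries, which overlapped (log2 change 0.07 ± 0.19). At day 9 it had 86.2, 91.6 and 89.9 CPM in cKO libraries, against 112, 128 and 137 CPM in WT libraries. All 3 cKO libraries lay below all 3 WT libraries.

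Sort1 fell at day 9 by 0.49 ± 0.10 on the log2 scale (1.41-fold), with means of 89.2 ± 2.77 CPM in cKO and 126 ± 12.3 CPM in WT libraries (SD, n = 3 each). Without cKO libraries 1 and 3 the log2 change was again -0.49 but no longer past the threshold. The antisense gene Gm12523 at its start had 0 counts in all libraries.

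Bdnf (chromosome 2, 109674700 to 109727007, plus strand) was low throughout. At day 5 it had 2.26, 5.58 and 3.12 CPM in cKO libraries 1, 2 and 3, against 6.41, 2.16 and 2.82 CPM in WT libraries. The groups overlapped, and cKO library 2 and WT library 1 had the highest Bdnf and the lowest Ngfr of their groups. These libraries also lay at the ends of their groups for other genes, such as Sos1 (highest, 70.1 and 42.7 CPM) and Psap (lowest, 698 and 816 CPM). No relation of Bdnf to Ngfr is read from this. At day 9 Bdnf had 0.468, 0.830 and 0.844 CPM in cKO libraries, from 3, 33 and 6 counts. In WT libraries it had 1.36, 1.11 and 0.756 CPM, from 48, 31 and 26 counts.

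The log2 change of Bdnf was -0.06 ± 0.53 at day 5 and -0.53 ± 0.41 at day 9, neither past the threshold, and both standard errors were wide beside the changes. The sign at day 5 turned with the library left out. The antisense gene Gm45346 overlaps the start of Bdnf, and its own counts were not analysed here.

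Ntf3 (chromosome 6, 126101412 to 126166910, minus strand), the gene for NT-3, had 0 counts in all 12 libraries and was not tested. A floor of 3 counts per library corresponds to 0.104 to 0.124 CPM in cKO and 0.0924 to 0.103 CPM in WT libraries at day 5. At day 9 it corresponds to 0.0754 to 0.468 CPM in cKO and 0.0848 to 0.108 CPM in WT libraries, so levels under those values were not detectable.

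At day 9, 1 of the 5 genes tested rose (Ntrk2) and 2 fell (Ngfr and Sort1), where 43.6% of all 14617 genes tested passed the threshold in either direction, 21% having risen and 22.6% fallen. All cKO libraries lay above all WT libraries in 27.6% of genes at day 9, and below them in 30.2%. At day 5 those shares were 1.5% and 1.35%, and the groups overlapped for each of the 5 genes. At day 5 none of the 5 passed, where 0.00673% of 14849 genes did (1 gene, Lmnb1, by edgeR's quasi-likelihood test; 89 had an unadjusted p under 0.05, and DESeq2 called 8 genes); of the 5, none had an unadjusted p under 0.05 and DESeq2 called 0. The genes were picked with such values known, so nothing is read from these counts. Lmnb1 itself passed at day 5 with an adjusted p of only 0.0493 (edgeR's quasi-likelihood test). With any single library left out, 0 genes passed at day 5. A missing call at day 5, here or below, is therefore no evidence that a gene did not change. The median log2 change of the 5 genes was -0.06 at day 5 and -0.49 at day 9, against 0.01 for all genes tested at each day.

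**Figure D2:**
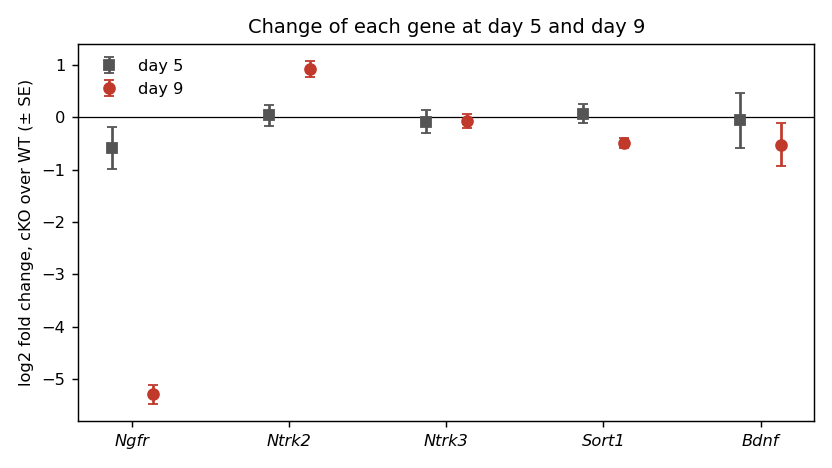
Log2 fold change of cKO over WT for the 5 detected genes (n = 3 libraries per group). Bars are SE, taken as the size of the change over the square root of F in edgeR's quasi-likelihood test. Grey squares are day 5 and red circles day 9. Ngfr is at -0.58 at day 5 and at -5.29 at day 9, Ntrk2 is the sole gene of the 5 above 0 at day 9, and Ntrk3 stays near 0 at both days.

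The change at day 9 minus the change at day 5 was -4.73 ± 0.48 for Ngfr and 0.88 ± 0.23 for Ntrk2 on the log2 scale. Both passed the threshold in a fit of all 12 libraries in which 7.71% of 15323 genes passed, 2.57% upwards and 5.14% downwards. Both genes were picked with such values known, so these calls are a description. For Ntrk2 that call was lost when any 1 of 11 of the 12 libraries was left out, with log2 values between 0.75 and 0.96. The same difference was -0.56 ± 0.17 for Sort1, -0.48 ± 0.70 for Bdnf and 0.01 ± 0.23 for Ntrk3, none past the threshold. Levels were not tested between days, because each day has its own table.

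TPM, which are scaled for transcript length, allow the receptors to be set against each other inside a library, where structural RNA cancels out. At day 9 Ngfr made up 0.0917%, 0.0922% and 0.0913% of the summed TPM of Ngfr, Ntrk2 and Ntrk3 in cKO libraries 1, 2 and 3, against 7.07%, 7.26% and 5.16% in WT libraries. The TPM of Ngfr was deposited as 0.07 in cKO library 1 and 0.09 in cKO library 3, so rounding and the few counts limit those 2 shares, and their closeness is no measured agreement. Ntrk2 made up 92.5%, 95.1% and 93.9% in cKO libraries, against 82.7%, 82.0% and 84.1% in WT libraries. Ntrk3 made up 7.36%, 4.81% and 6.02% in cKO libraries, against 10.2%, 10.8% and 10.8% in WT libraries. No share overlapped between the groups, but the 3 shares add up to the whole in each library, so they are not separate results. The CPM of Ntrk3 itself overlapped between the groups at day 9 (log2 change -0.07).

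The TPM ratio of Ntrk2 to Ntrk3 at day 9 was 12.6, 19.8 and 15.6 in cKO libraries, against 8.08, 7.61 and 7.81 in WT libraries. The ratio of Ntrk2 to Sort1 was 9.14, 11.8 and 10.2 in cKO libraries, against 3.75, 3.39 and 3.88 in WT libraries. A ratio shows unequal change of its 2 genes and not which of them changed. At day 5 the ratio of Ntrk2 to Ntrk3 was 3.22, 3.55 and 4.88 in cKO libraries, against 3.56, 3.28 and 3.58 in WT libraries, and the Ngfr share was 6.95%, 3.45% and 4.76% in cKO libraries, against 4.20%, 7.85% and 9.44% in WT libraries. Both overlapped between the groups.

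**Figure D3:**
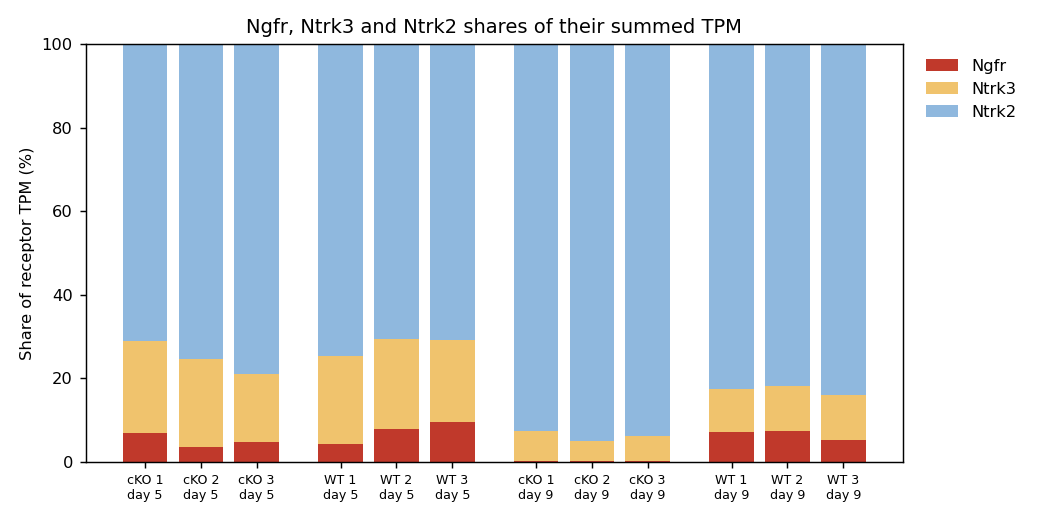
Shares of Ngfr (red, bottom), Ntrk3 (yellow) and Ntrk2 (blue) in their summed TPM, as percent, for each of the 12 libraries. The red part is under 0.1% in the 3 cKO libraries of day 9 and between 3.45% and 9.44% in the other 9 libraries.

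Expected counts divided by TPM, scaled on genes with 1 annotated transcript, give the mean transcript length that the authors' estimate implies for a gene in a library. For Ngfr this returned 3446 to 3449 bases wherever at least 100 counts were present, beside the annotated 3446 bases. For Ntrk2 at day 9 it was 7084, 7082 and 7077 bases in cKO libraries, against 7095, 7094 and 7089 bases in WT libraries. These lie between Ntrk2-202 (6846 bases, 476 codons, a truncated receptor) and Ntrk2-201 (8744 bases, 821 codons, the full-length receptor). Every cKO value lay below every WT value; the scale itself is known only to the median deviation of 0.386% to 0.431% found over single-transcript genes in those libraries. At day 5 it was 7154, 7147 and 7129 bases in cKO libraries, against 7135, 7139 and 7133 bases in WT libraries, which overlapped.

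For Sort1 the implied mean length at day 9 was 5869, 5942 and 5638 bases in cKO libraries, against 5384, 5543 and 5506 bases in WT libraries, with no overlap between the groups. At day 5 it was 5051, 5262 and 5148 bases in cKO libraries, against 5109, 4968 and 5040 bases in WT libraries, which overlapped. The coding transcripts Sort1-201 and Sort1-203 have 6796 and 6836 bases and the retained-intron transcript Sort1-202 has 5193 bases. For Ntrk3 all 12 values lay between 2430 and 2533 bases. The share of all genes whose implied lengths did not overlap between the groups was not counted. The gaps for Ntrk2 and Sort1 at day 9 thus have no background to be read against. Many mixtures of transcripts give 1 mean, and the annotation the authors used is not given in the sources used here, so no isoform level is stated.

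**Figure D4:**
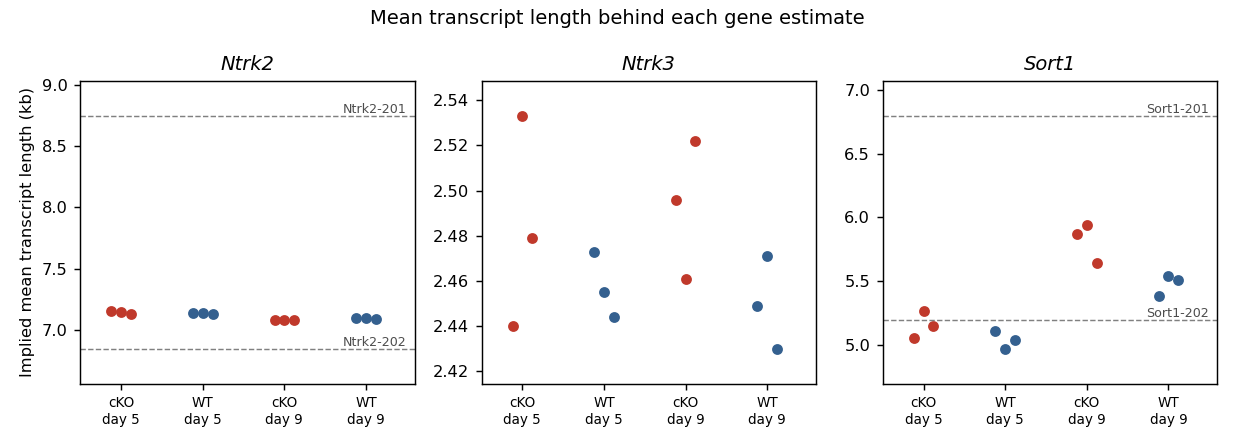
Mean transcript length implied by count and TPM, in kilobases on axes that differ between panels, for Ntrk2, Ntrk3 and Sort1 in each library; red points are cKO, blue points WT, and dashed lines are annotated transcript lengths. Sort1 at day 9 lies between 5638 and 5942 bases in cKO and between 5384 and 5543 bases in WT libraries.

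Genes with the most similar pattern were sought over the 12 libraries by the root mean square difference of log2 CPM, centred within each day, among 11519 named genes with a mean of at least 1 CPM. Nearest to Ngfr were Igfbp4 (0.28), Tmem173 (0.333) and Rab26 (0.401); Igfbp4, which binds insulin-like growth factors, averaged 6.29 ± 1.25 CPM in cKO and 179 ± 27.6 CPM in WT libraries at day 9 (SD, n = 3 each). Nearest to Ntrk2 were Raver2 (0.065), Hacd2 (0.101) and Arhgef10 (0.103). Nearest to Ntrk3 were Kctd1, Atp2b2 and Lurap1 (0.0875 to 0.0925), to Sort1 Ppp4r1, Rabl3 and Nono (0.0336 to 0.0586), and to Bdnf Sorcs1, Mcm8 and Plekhh2 (0.202 to 0.209). Raver2, an RNA-binding protein gene, averaged 26.4 ± 3.70 CPM in cKO and 13.8 ± 1.77 CPM in WT libraries at day 9.

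Among 54 other genes of neurotrophin and related signalling, 47 were tested at day 9 and 48 at day 5. At day 9, 11 rose and 13 fell (51.1%, against 43.6% of all genes), with a median log2 change of -0.09. Ntf5, the gene for NT-4, was not tested at either day and had 2.65 counts in WT library 2 of day 9 and 0 in the other libraries of that day. At day 5 none of the 48 passed in edgeR's quasi-likelihood test, none had an unadjusted p under 0.05, DESeq2 called 0, and their median was 0.01. The genes named are up to 4 per list with the smallest adjusted p (edgeR's quasi-likelihood test, Benjamini-Hochberg over all genes), and values are CPM with SD at day 9 (n = 3 each). The call of 18 of the 19 genes named was lost or turned on log2(TPM + 1), where the median of all genes was -0.79, the exception being Shc3. Without cKO libraries 1 and 3 together, 6 calls were lost, those of Frs2, Gfra2, Pcsk7, Plat, Sorcs1 and Sos1. The count of each list is to be read against the 21% of all genes that rose and the 22.6% that fell. The lists were chosen with earlier results of these data known, so their counts and p-values are a description.

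All 4 other sortilin family receptors passed the threshold at day 9, 1 having risen and 3 fallen, where 43.6% of all genes passed. Sorl1, a sorting receptor for the amyloid precursor protein, rose to 63.7 ± 8.60 CPM in cKO, against 19.6 ± 4.21 CPM in WT libraries (log2 change 1.70 ± 0.18, adjusted p = 0.000245). Sorcs2, which can also pair with p75, fell to 42.3 ± 2.07 CPM in cKO, against 79.6 ± 3.55 CPM in WT libraries (-0.92 ± 0.09, adjusted p = 0.000197). Sorcs1 (-0.77 ± 0.18, adjusted p = 0.0104) and Sorcs3 (-0.82 ± 0.28, adjusted p = 0.0439) fell too; without cKO libraries 1 and 3 the adjusted p of Sorcs1 was 0.0662. For Sorcs3 the groups overlapped, and the adjusted p lay between 0.0282 and 0.135 when single libraries were left out and was 0.0927 with the replicate block.

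Of 9 p75 partners, effectors and relatives, 1 rose and 2 fell (33.3%, against 43.6% of all genes). Tnfrsf19 (TROY), a p75 relative of the TNF receptor family, fell to 59.2 ± 4.79 CPM in cKO, against 119 ± 14.04 CPM in WT libraries (2.01-fold lower, adjusted p = 0.000493). Maged1 (NRAGE), which binds p75 inside the cell, fell to 639 ± 31.0 CPM in cKO, against 1004 ± 50.8 CPM in WT libraries (-0.65 ± 0.11, adjusted p = 0.00268). Lingo1, a partner of p75 in the Nogo receptor complex, rose to 41.5 ± 2.12 CPM in cKO, against 28.2 ± 1.42 CPM in WT libraries (0.56 ± 0.11, adjusted p = 0.00458), but had a log2 change of -0.44 on log2(TPM + 1).

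Of 14 Trk adaptors and partners, 5 rose and 3 fell (57.1%, against 43.6% of all genes). Shc3, an adaptor that links activated Trk receptors to Ras, fell to 5.97 ± 1.88 CPM in cKO, against 41.5 ± 7.87 CPM in WT libraries (-2.85 ± 0.28, adjusted p = 0.00032). Kidins220, a membrane scaffold that binds Trk receptors and p75, rose to 246 ± 8.23 CPM in cKO, against 131 ± 4.05 CPM in WT libraries (0.91 ± 0.09, adjusted p = 0.000249). Sos1, the Ras exchange factor, rose by 1.36 ± 0.24 (adjusted p = 0.00424), and Frs2, a docking protein shared by Trk and FGF receptors, rose by 0.51 ± 0.10 (adjusted p = 0.00576). On log2(TPM + 1), where the median of all genes was -0.79, Kidins220 was at -0.15, Frs2 at -0.48 and Sos1 at 0.30. Without cKO libraries 1 and 3 the adjusted p was 0.0864 for Sos1 and 0.0706 for Frs2, and for Frs2 it was 0.0768 without the filter on low counts.

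Of 9 tested genes that process proneurotrophins or cleave p75, 1 rose and 2 fell (33.3%, against 43.6% of all genes). Pcsk6, a proprotein convertase, rose to 32.0 ± 2.01 CPM in cKO, against 15.6 ± 2.59 CPM in WT libraries (1.04 ± 0.15, adjusted p = 0.00121), but was at 0.08 on log2(TPM + 1). The convertase Pcsk7 (-0.54 ± 0.12, adjusted p = 0.00829) and Plat (-0.55 ± 0.15, adjusted p = 0.0199), the tissue plasminogen activator that starts extracellular cleavage of proBDNF through plasmin, fell. For Plat the adjusted p lay between 0.00142 and 0.0693 when single libraries were left out, and without cKO libraries 1 and 3 it was 0.192 for Plat and 0.0635 for Pcsk7. Of the sortilin cargo genes, Grn, which encodes progranulin, fell to 51.0 ± 6.84 CPM in cKO, against 90.2 ± 7.37 CPM in WT libraries (-0.82 ± 0.12, adjusted p = 0.00162), whereas Psap had a log2 change of -0.01 and Nts had 0 counts.

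Of 9 tested ligands and receptors of the GDNF and CNTF families, 3 rose and 2 fell (55.6%, against 43.6% of all genes). Il6st (gp130), the signalling subunit of CNTF and LIF receptors, rose to 118 ± 3.76 CPM in cKO, against 62.9 ± 5.78 CPM in WT libraries (0.91 ± 0.10, adjusted p = 0.000345), though it was at -0.18 on log2(TPM + 1). Gfra1, the GDNF-binding co-receptor, fell to 8.57 ± 1.56 CPM in cKO, against 22.8 ± 5.03 CPM in WT libraries (-1.41 ± 0.20, adjusted p = 0.00115). Cntf rose to 1.58 ± 0.558 CPM in cKO, against 0.318 ± 0.0335 CPM in WT libraries (2.34 ± 0.41, adjusted p = 0.00334). That rise rests on few counts, 6, 78 and 13 in cKO and 10, 9 and 12 in WT libraries 1, 2 and 3. Gfra2 fell by 0.58 ± 0.18 (adjusted p = 0.0319, between 0.026 and 0.101 when single libraries were left out), a call also lost without cKO libraries 1 and 3.

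**Figure D5:**
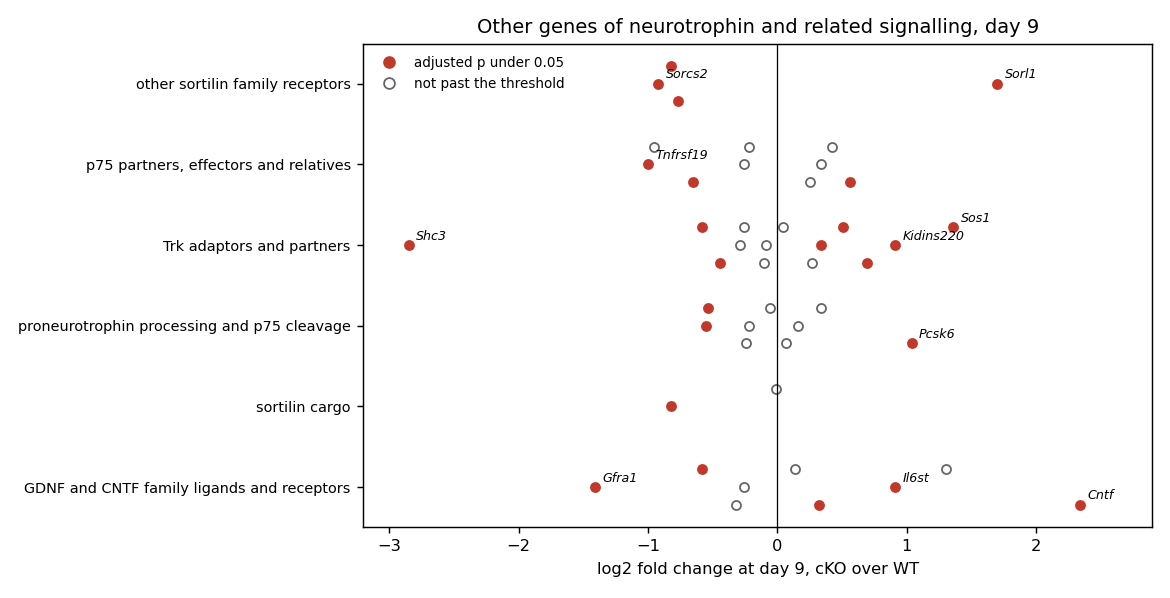
Log2 fold change at day 9, cKO over WT, of each tested gene in 6 lists of neurotrophin and related signalling genes; filled points passed an adjusted p of 0.05 in edgeR's quasi-likelihood test, and called genes with a change of at least 0.9 in size are named. Shc3 is at -2.85 and Gfra1 at -1.41 on the left, with Cntf at 2.34 and Sorl1 at 1.70 on the right.

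Cell type markers moved with these genes at day 9, and their part in the results was not tested. Among all genes tested at day 9, 21% rose and 22.6% fell. The marker lists too were chosen with earlier results of these data known, so their counts are a description. Markers of astrocytes, which are known for truncated TrkB, had 6 of 8 genes risen and 0 fallen, with summed levels of 3087 to 3762 CPM in cKO and 1918 to 2246 CPM in WT libraries. Oligodendrocyte markers had 7 of 7 tested genes risen (945 to 1366 CPM in cKO, 205 to 274 CPM in WT libraries), and neuron markers 5 of 7 (514 to 579 CPM in cKO, 127 to 289 CPM in WT libraries). Oligodendrocyte precursor markers had 3 risen and 4 fallen of 7 tested (3120 to 3610 CPM in cKO, 2816 to 3194 CPM in WT libraries). The sum hides opposite changes: Gpr17, a receptor of committed precursors, rose to 2021 ± 227 CPM in cKO, against 356 ± 112 CPM in WT libraries, whereas Olig1 fell to 630 ± 42.7 CPM in cKO, against 1536 ± 90.0 CPM in WT libraries. Cspg4 fell to 89.7 ± 11.2 CPM in cKO, against 275 ± 19.4 CPM in WT libraries.

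Neural progenitor markers had 2 risen and 4 fallen of 8 (1200 to 1421 CPM in cKO, 2537 to 2917 CPM in WT libraries), and Sox2, whose promoter drives Cre, had 261 ± 21.1 CPM in cKO and 248 ± 30.1 CPM in WT libraries, with a log2 change of 0.07 that did not pass. Proliferation markers had 5 of 6 fallen (83.4 to 96.6 CPM in cKO, 360 to 480 CPM in WT libraries). Schwann and neural crest cells are known for high p75; of their markers Pmp22 fell beside Ngfr to 1.85 ± 0.660 CPM in cKO, against 14.1 ± 1.46 CPM in WT libraries (adjusted p = 0.000117 by edgeR's quasi-likelihood test). Frzb rose to 4.62 ± 0.657 CPM in cKO, against 2.20 ± 0.508 CPM in WT libraries (adjusted p = 0.0111), and Foxd3 was at 0 in all libraries. Of this list 1 gene rose and 1 fell of 3 tested, and its sum was 6.55 to 9.03 CPM in cKO and 15.4 to 18.4 CPM in WT libraries.

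Ependymal markers had 4 of 4 tested genes fallen (8.11 to 11.5 CPM in cKO, 16.9 to 17.3 CPM in WT libraries, Tmem212 at 0). Microglia and macrophage markers summed to 0.427 to 1.27 CPM in cKO and 0.251 to 0.320 CPM in WT libraries, with 0 of 6 genes tested and Aif1 at 0. Endothelial markers summed to 3.27 to 4.08 CPM in cKO and 3.08 to 3.801 CPM in WT libraries, with 1 of 2 tested genes risen, 1 fallen and Cdh5 at 0. Mural and fibroblast markers summed to 1.40 to 3.24 CPM in cKO and 0.717 to 1.13 CPM in WT libraries, with 1 of 1 tested gene risen and Lum at 0. At day 5 no marker in any list passed the threshold in edgeR's quasi-likelihood test; of 53 tested, 1 had an unadjusted p under 0.05 and DESeq2 called 0.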

How the data were processed

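RNA-seq of 12 libraries was read from the tables the authors deposited: expected counts per gene, estimated by RSEM, and TPM, scaled by the authors for transcript length and library total. The submitters' processing notes name RSEM, Bowtie2 and mm10. The sources used here give no annotation and no strand setting. The tables have 0 columns of samples outside this series.

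Expected counts, rounded to whole numbers, went through edgeR 4.0.16 under R 4.3.3: genes were filtered with filterByExpr on the groups, scaled by TMM, and tested with robust glmQLFit and glmQLFTest. P-values were adjusted by Benjamini-Hochberg over all genes tested, with 0.05 as the threshold. Separate fits compared cKO with WT at day 5 and at day 9; the day difference used all 12 libraries. Log2 changes are cKO minus WT, with SE the size of the change over the square root of F. In simulated counts with 200 changed genes, the script recovered 200 at day 5, 200 at day 9 and 193 for the day difference. Those changes were larger than the day 9 changes of Ntrk2 and Sort1. The simulated spread among libraries was set below that of either day. The fitted coefficient of variation among libraries was 0.405 at day 5 and 0.267 at day 9. The recovery therefore does not show that smaller changes could be found, nor that changes of the simulated size would be found at the real spread.

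TPM values, which are not counts, served for within-library shares, for implied transcript length (single-transcript genes of at least 2000 bases and 200 counts as the scale) and for alternative tests with limma 3.58.1 on log2(TPM + 1) and log2(TPM + 0.1). Other alternatives were DESeq2 1.42.0, limma-voom, no filter, upper-quartile scaling, leaving out structural RNAs, the replicate number as a block, and leaving out each library.

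Gene coordinates are from GENCODE M21 (GRCm38). The members and gene lists were chosen with earlier results of these data known, so the members' own changes are given as a description, without p-values. The counts and adjusted p-values of the listed genes are likewise a description. Besides the 6 members, the text names up to 4 genes per signalling list with the smallest adjusted p among those past the threshold at day 9, and the 3 nearest genes by pattern. Of the oligodendrocyte precursor markers 7 of 8 were listed; Lhfpl3 was not analysed here. Some genes of the lists are not reported here, and the counts and sums leave them out.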

Additional observations from a re-analysis of the deposited data

Results flagged for a closer look

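Changes that differed between day 9 and day 5, by a test of the difference itself in 1 fit of all 12 libraries (edgeR's quasi-likelihood test), were picked out for these genes; values are the log2 change at day 9 minus that at day 5. Ngfr was at -4.73 and Ntrk2 at 0.88, given as a description because both were chosen with such values known. Among the other signalling genes Shc3 was at -3.16 (adjusted p = 0.000598), Gfra1 at -1.28 (adjusted p = 0.0244), Tnfrsf19 at -1.13 (adjusted p = 0.00934) and Gfra2 at -1.02 (adjusted p = 0.0302). Sorl1 was at 1.42 (adjusted p = 0.00589) and Pcsk6 at 1.15 (adjusted p = 0.0399). These other genes come from lists chosen with earlier results known, so their values are a description too. Their day difference calls were not examined under other settings, several of which ended the Ntrk2 call. With the replicate block the day difference calls among all genes went from 1181 to 322. All 3 cKO libraries lay on the same side of all 3 WT libraries at day 9 for each of these 8 genes, as they did for 27.6% of all genes upwards and 30.2% downwards; the 8 were picked for a large difference, so this count is a description. At day 5 the groups overlapped for 7 of them. For Gfra2 all 3 cKO libraries (31.5 ± 4.26 CPM, SD, n = 3) lay above all 3 WT libraries (23.0 ± 2.21 CPM), the other side from day 9. Such a gap upwards was seen for 1.5% of all genes at day 5. The day 5 change of Gfra2, 0.45 ± 0.22, did not pass the threshold. Its day 9 call was lost with limma-voom and with the replicate block, so no reversal is read from this.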

How the results depend on the processing

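The members were picked with such values known, so calls kept under other settings describe the processing only. The day 9 fall of Ngfr kept its direction under every alternative run. It ranged from -3.56 on log2(TPM + 1) to -5.61 on log2(TPM + 0.1). With single libraries left out it ranged from -5.44 to -5.24, always past the threshold. With single libraries left out, the day 9 changes were 0.80 to 1.02 for Ntrk2 and -0.58 to -0.44 for Sort1, always past the threshold, and -0.15 to 0.02 for Ntrk3. On log2(TPM + 1), Ntrk2 at day 9 was at -0.15 (-0.16 with 0.1 added), Sort1 at -1.57 (-1.65) and no longer past the threshold, Lingo1 at -0.44, Kidins220 at -0.15, Frs2 at -0.48 and Il6st at -0.18. Without cKO libraries 1 and 3 together Sort1 was again at -0.49 but no longer past the threshold.

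At day 5 Ntrk2 turned to -0.09 on both TPM scales, -0.02 without the filter and -0.05 to 0.16 with single libraries left out; Sort1 turned to -0.09 on both TPM scales and ranged from -0.04 to 0.12; Bdnf ranged from -0.52 to 0.56. An alternative added after the data were seen, without cKO library 2 and WT library 1 of day 5, gave -0.02 for Ntrk2 and 0.12 for Bdnf. The Ntrk3 day difference was -0.04 with DESeq2 and without the filter, -0.03 without structural RNAs, -0.02 without cKO libraries 1 and 3 of day 9, and -0.11 to 0.14 with single libraries left out. The Ntrk2 day difference, 0.88, lost its call without the filter (0.84), without structural RNAs (0.84), and without cKO libraries 1 and 3 of day 9 (1.19), and was 0.75 to 0.96 with single libraries left out. The Sort1 day difference passed the threshold with DESeq2 (-0.61) and without cKO library 2 and WT library 1 of day 5 (-0.61), and ranged from -0.64 to -0.49 with single libraries left out.

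The count of genes past the threshold at day 5, 1, was 8 with DESeq2, 2 with limma-voom, 3 on log2(TPM + 1), 0 without the filter, 0 with single libraries left out and 19 without cKO library 2 and WT library 1. At day 9 it was 6378, 510 on log2(TPM + 1), 3344 without cKO libraries 1 and 3, and 4063 to 7507 with single libraries left out. The day difference count, 1181, was 452 without cKO libraries 1 and 3 of day 9, 2535 without cKO library 2 and WT library 1 of day 5, and 756 to 2410 with single libraries left out.

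Whether replicate numbers pair the samples is not labelled. The correlations of same-numbered deviations were -0.721, -0.498 and 0.534 at day 5 and -0.00138, -0.2 and -0.0628 at day 9, too few to settle it. With the replicate block, Ngfr at day 9 was at -5.33, Ntrk2 at 0.92 and Sort1 at -0.49, all still past the threshold; Bdnf at day 5 was at 0.01, the Ntrk2 day difference, at 0.89, lost its call, and the counts were 0 at day 5 and 322 for the day difference. Over all results and alternatives, 452 values kept direction and side of the threshold, 55 fell short of it, 3 newly passed it, 31 turned direction and 23 counts moved by over 1.5 times; apart from the steps that leave out libraries or genes, the cause was not tested. Among the 19 other signalling genes named, DESeq2, upper-quartile scaling and leaving out structural RNAs ended no call, limma-voom ended that of Gfra2, no filter those of Frs2 and Lingo1, and the replicate block those of Gfra2 and Sorcs3. Depth limits Bdnf and Ngfr in cKO at day 9 most, where libraries 1 and 3 held 6 counts or fewer of each.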
